A study of Rattus norvegicus with 21 samples.

Results

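NF-kappaB is a family of transcription factors that waits in the cytoplasm bound to inhibitor proteins called IkappaBs and enters the nucleus once these are degraded. The genes of its subunits, its inhibitors and its brakes are themselves among its best known targets, which gives the pathway feedback at the level of mRNA. In astrocytes, the pathway is best known for the response to inflammatory cytokines. The genes described here were a list of 10 symbols: the subunits Nfkb1, Nfkb2, Rela and Relb, the inhibitors Nfkbia and Nfkbie, the nuclear IkappaB protein Bcl3, the feedback enzymes Tnfaip3 and Birc3, and the target Tnfaip2. They were found by symbol in a table of 17311 genes, where 8 of the 10 had a row. Relb and Tnfaip3 were not analysed here, since no row carried those symbols. All 8 passed the filter on low counts, among 12096 genes tested.

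The cells were primary astrocytes of neonatal Sprague-Dawley rat pups at passages 2 to 3, transfected with small interfering RNA (siRNA). Of the 21 libraries, 9 hold poly(A) RNA with gene counts, in 3 groups of 3. One group received ATP and an siRNA that targets Tardbp, the gene of the RNA-binding protein TDP-43. ATP is a nucleotide that signals to astrocytes from outside the cell. Another group received TDP-43 siRNA without ATP, and the controls received scrambled siRNA. The labels name 1 TDP-43 siRNA condition, no group with ATP and scrambled siRNA, and neither a dose nor a time of ATP. An effect of ATP can therefore be read only within knocked-down cells, and loss of TDP-43 cannot be told apart from other effects of its siRNA. The labels do not say whether replicates came from different cultures or animals. The p-values therefore measure only how far these libraries spread, which could be technical spread.

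Gene counts per library ran from 11485173 to 40286765. Scrambled replicate 1 stood apart, with the highest gene total and 3295309 counts in the repeat table, where the other libraries had 14546339 to 39050521. Levels below are counts per 1000000 counts (CPM) on library totals scaled by TMM, which centres the bulk of genes, and they are not divided by gene length. Tardbp checked the labels. It averaged 26.2 ± 2.38 CPM with TDP-43 siRNA and ATP, 24.8 ± 4.50 CPM with TDP-43 siRNA and 169 ± 10.7 CPM with scrambled siRNA (SD, n = 3 each), a log2 fold change of -2.69 with ATP and -2.77 without it against scrambled siRNA (edgeR quasi-likelihood adjusted p = 1.59e-09 and 1.13e-09). The astrocyte filament gene Gfap averaged 2585 ± 251 CPM with TDP-43 siRNA and ATP, 2329 ± 475 CPM with TDP-43 siRNA and 2489 ± 337 CPM with scrambled siRNA (SD, n = 3 each). Microglial genes were also present: the 15 markers looked up summed to 440 to 581 CPM with TDP-43 siRNA and ATP, 408 to 494 CPM with TDP-43 siRNA and 500 to 603 CPM with scrambled siRNA. The 10 astrocyte markers summed to 4839 to 5577 CPM with TDP-43 siRNA and ATP, 4272 to 5350 CPM with TDP-43 siRNA and 5599 to 6780 CPM with scrambled siRNA, and none was at 0. Against scrambled siRNA, 1 of them rose and 4 fell with TDP-43 siRNA and ATP, and 1 rose and 5 fell with TDP-43 siRNA alone (edgeR adjusted p under 0.05). Of all genes tested, 17.4% rose and 20.0% fell with both treatments, and 16.2% rose and 18.2% fell with TDP-43 siRNA alone. The part of these markers in the results below was not tested. In such bulk RNA, fewer cells of a type and less RNA per cell cannot be told apart.

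The promoters of these genes are shown first because several hold a match to the kappaB consensus, the sequence NF-kappaB is known to bind, close to the start of transcription. Windows of 300 bases (250 before and 50 after the annotated start) came from RefSeq, build GRCr8, for 8 of the 10 genes. The table did not list Relb and Birc3. The 10-base kappaB consensus was searched on both strands. It matched in 6 of 8 windows (75%), those of Nfkb1, Nfkb2, Nfkbia, Nfkbie, Bcl3 and Tnfaip3, against 1142 of 27457 promoters of the same length (4.16%) and 477 of 9157 promoters of tested genes (5.21%). Matches were also frequent in the promoters of other NF-kappaB genes looked up here, at 9 of 17 other known targets (52.9%) and 21 of 63 genes over 6 pathway lists (33.3%). Rela and Tnfaip2 had no match in the window. A match is a string of letters and not a measured binding site. The 5 windows below belong to genes with both a match and a measured mRNA, each 5′ to 3′ on the gene's strand with the match in capitals. They lie at chr2:226805413-226805712 on the minus strand (Nfkb1), chr1:255108124-255108423 on the plus strand (Nfkb2), chr6:78597023-78597322 on the minus strand (Nfkbia), chr9:22947823-22948122 on the minus strand (Nfkbie) and chr1:88613506-88613805 on the minus strand (Bcl3).
Nfkb1: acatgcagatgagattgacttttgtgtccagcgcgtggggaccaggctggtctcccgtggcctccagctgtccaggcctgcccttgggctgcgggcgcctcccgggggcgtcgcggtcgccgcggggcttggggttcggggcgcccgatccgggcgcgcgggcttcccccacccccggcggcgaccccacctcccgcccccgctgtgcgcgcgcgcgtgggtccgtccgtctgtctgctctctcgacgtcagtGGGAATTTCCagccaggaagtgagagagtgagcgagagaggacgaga
Nfkb2: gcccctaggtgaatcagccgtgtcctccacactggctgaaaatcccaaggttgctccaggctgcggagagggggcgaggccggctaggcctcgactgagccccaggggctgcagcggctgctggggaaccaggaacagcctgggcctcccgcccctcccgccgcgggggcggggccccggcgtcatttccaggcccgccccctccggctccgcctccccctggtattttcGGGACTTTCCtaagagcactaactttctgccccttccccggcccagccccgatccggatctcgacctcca
Nfkbia: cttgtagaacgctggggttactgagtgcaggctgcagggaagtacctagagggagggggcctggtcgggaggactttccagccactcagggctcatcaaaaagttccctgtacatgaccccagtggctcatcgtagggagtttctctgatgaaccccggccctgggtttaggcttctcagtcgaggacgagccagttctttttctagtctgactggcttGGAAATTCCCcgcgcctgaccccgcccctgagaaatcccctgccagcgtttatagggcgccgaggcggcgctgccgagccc
Nfkbie: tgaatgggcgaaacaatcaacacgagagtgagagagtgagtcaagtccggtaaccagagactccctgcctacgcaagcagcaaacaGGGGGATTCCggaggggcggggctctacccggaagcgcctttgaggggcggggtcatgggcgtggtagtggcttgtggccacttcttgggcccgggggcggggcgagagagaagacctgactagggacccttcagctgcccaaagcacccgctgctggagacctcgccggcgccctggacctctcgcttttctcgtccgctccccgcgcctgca
Bcl3: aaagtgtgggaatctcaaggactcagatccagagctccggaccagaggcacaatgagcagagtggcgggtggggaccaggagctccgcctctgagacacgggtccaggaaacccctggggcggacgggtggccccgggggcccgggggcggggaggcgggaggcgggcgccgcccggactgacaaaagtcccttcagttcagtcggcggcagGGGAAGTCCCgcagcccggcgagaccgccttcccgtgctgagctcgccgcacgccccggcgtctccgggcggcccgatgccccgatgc

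Read on the strand that fits the consensus, the matches of Nfkb1 and Nfkbia were the same 10 bases, GGGAATTTCC. Nfkb2 carried GGGACTTTCC, Nfkbie GGGGGATTCC and Bcl3 GGGACTTCCC. The match lay 4 to 13 bases after the start in Nfkb1, and 20 to 11 bases before it in Nfkb2, 31 to 22 before it in Nfkbia and 38 to 29 before it in Bcl3. In Nfkbie it lay farther out, 164 to 155 bases before the start.

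**Figure D1:**
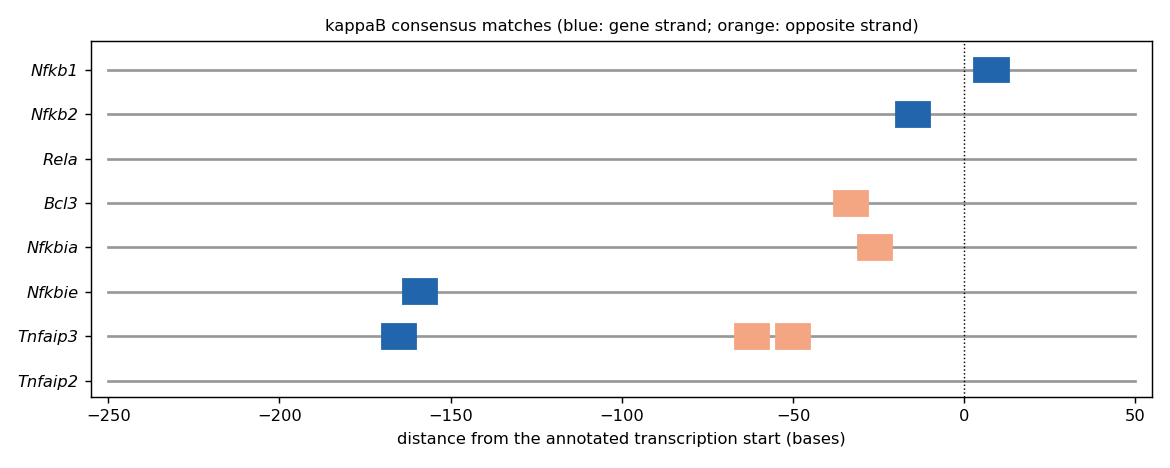
Positions of kappaB consensus matches in the 300-base promoter windows of 8 genes, with distance from the annotated start in bases on the x axis and 1 gene per line. Blue boxes lie on the gene's strand and orange boxes on the opposite strand; Nfkb1, Nfkb2, Nfkbia and Bcl3 have their match within 40 bases of the start, and Rela and Tnfaip2 have none.

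ATP given to knocked-down cells went with higher mRNA of most of these genes. Of 8 tested, 5 rose against TDP-43 siRNA alone and 0 fell: Nfkb1, Nfkb2, Nfkbia, Nfkbie and Tnfaip2 (62.5%; edgeR quasi-likelihood test, Benjamini-Hochberg adjusted p under 0.05). Among all 12096 genes 0.926% rose and 0.141% fell in that comparison. At an unadjusted p under 0.05 edgeR gave 6 higher and 0 lower, and DESeq2 at its adjusted threshold also gave 6 and 0, with Birc3 as the sixth. Over all genes DESeq2 called 267 higher and 164 lower, and the share of all genes at the unadjusted threshold is not given here. All 8 log2 fold changes were above 0, from 0.25 (Rela) to 1.51 (Tnfaip2), with a median of 0.58, where the median of all genes was -0.00075. The count rests on all 6 libraries. Without TDP-43 siRNA replicate 3 the genes called were 3 (Nfkb2, Nfkbia and Tnfaip2), and without any other single library of the comparison it was 1 (Tnfaip2). Over all genes these 6 fits called 21 to 48 higher, against 112 with every library. The log2 fold changes in these fits ran from 0.44 to 0.55 for Nfkb1 and 0.51 to 0.67 for Nfkb2. They ran from 0.49 to 0.71 for Nfkbia, 0.56 to 0.72 for Nfkbie and 1.34 to 1.69 for Tnfaip2.

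With knockdown by itself, 1 of the 8 genes rose against scrambled siRNA (Nfkb2, 12.5%) and 1 fell (Tnfaip2, 12.5%). These shares were near those of all genes, of which 16.2% rose and 18.2% fell, so they do not set the 8 genes apart. The median log2 fold change was -0.15, against 0.01 for all genes. Nfkb2 lost its call without scrambled replicate 1 (adjusted p = 0.0562) and in 4 of the other 5 fits that left out a library. Scaled by total counts alone, the median of all genes stood at 0.18 with 3427 rises and 1436 falls, where TMM gave 1956 and 2198, so each direction here is taken relative to most other genes.

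Set against scrambled siRNA, cells with both TDP-43 siRNA and ATP had 5 of 8 genes higher and 0 lower, the same 5 as above (62.5%), where 17.4% of all genes rose and 20.0% fell. DESeq2 also gave 5 and 0, where over all genes it called 2230 higher and 2550 lower. At an unadjusted p under 0.05 edgeR gave 6 and 0, with no share of all genes given at that threshold. The comparison shares its libraries with the other 2, so it adds no independent evidence. The count was 4 without scrambled replicate 1, where Nfkbie was no longer called, and 3 without TDP-43 siRNA and ATP replicate 2, where Nfkbia was also lost. With total counts alone all 8 were called higher, the median of all genes moved to 0.24, and all genes gave 4099 rises and 1400 falls where TMM gave 2106 and 2415.

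**Figure D2:**
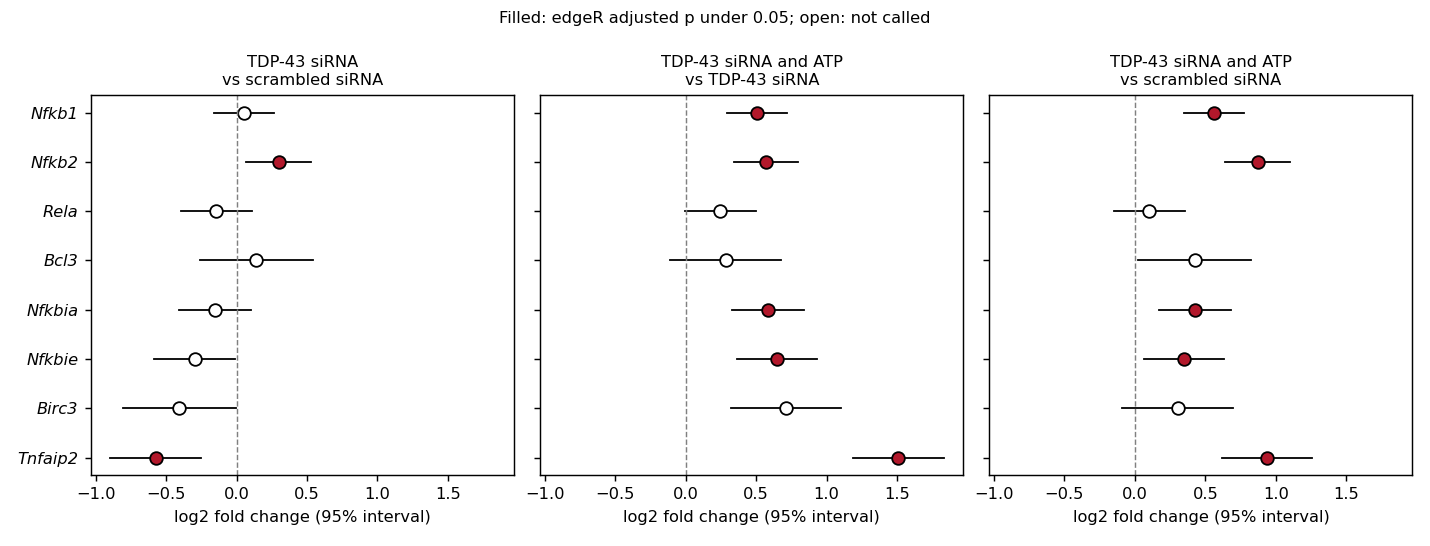
Log2 fold changes of the 8 genes with their 95% intervals from the edgeR fit, in 3 panels for the 3 comparisons, with filled points where the adjusted p was under 0.05. With ATP in knocked-down cells every point lies above 0, while knockdown alone gives values from -0.57 (Tnfaip2) to 0.30 (Nfkb2).

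Among the subunits, Nfkb1 encodes p105, the precursor of p50. It had 99.2, 109 and 97.7 CPM with TDP-43 siRNA and ATP, 74.4, 64.5 and 75.7 CPM with TDP-43 siRNA, and 65.8, 71.6 and 69.8 CPM with scrambled siRNA. All libraries with ATP lay above all others, and the other groups overlapped. The log2 fold change was 0.51 against TDP-43 siRNA (SE 0.10, edgeR adjusted p = 0.0227) and 0.56 against scrambled siRNA (SE 0.10, edgeR adjusted p = 0.000465). Knockdown without ATP gave 0.05 (95% interval -0.16 to 0.27, edgeR adjusted p = 0.715).

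Nfkb2 encodes p100, the precursor of p52 and itself an IkappaB-like inhibitor in the non-canonical branch of the pathway. It had 61.3, 64.9 and 60.8 CPM with TDP-43 siRNA and ATP, 40.7, 37.8 and 47.2 CPM with TDP-43 siRNA, and 34.0, 34.6 and 33.6 CPM with scrambled siRNA. The 3 groups did not overlap, with scrambled siRNA lowest and ATP highest. Its log2 fold change was 0.57 with ATP against TDP-43 siRNA (SE 0.11, edgeR adjusted p = 0.0166), 0.30 for TDP-43 siRNA against scrambled siRNA (SE 0.11, edgeR adjusted p = 0.0434) and 0.87 for both treatments against scrambled siRNA (SE 0.11, edgeR adjusted p = 1.87e-05).

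Rela encodes p65, the subunit that activates transcription in the canonical dimer. It had 91.6, 99.9 and 95.1 CPM with TDP-43 siRNA and ATP, 87.3, 74.3 and 80.0 CPM with TDP-43 siRNA, and 106, 79.0 and 81.4 CPM with scrambled siRNA. The libraries with ATP stood just above those with TDP-43 siRNA, and scrambled replicate 1 was the highest of the 9. Rela did not pass in any of the 3 comparisons. Its log2 fold change with ATP was 0.25 against TDP-43 siRNA (95% interval -0.0042 to 0.50, edgeR adjusted p = 0.410) and 0.10 against scrambled siRNA (-0.15 to 0.35, edgeR adjusted p = 0.529). Knockdown alone gave -0.14 (-0.39 to 0.11, edgeR adjusted p = 0.374), and the value was 0.0076 without scrambled replicate 1.

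Bcl3 encodes a nuclear IkappaB protein that joins p50 or p52 dimers on DNA. It had 17.9, 21.8 and 17.9 CPM with TDP-43 siRNA and ATP, 15.5, 11.6 and 20.1 CPM with TDP-43 siRNA, and 13.4, 12.7 and 17.0 CPM with scrambled siRNA. TDP-43 siRNA replicate 3 reached the range of the ATP libraries, so those groups overlapped. Bcl3 passed in no comparison, at log2 fold changes of 0.28 with ATP against TDP-43 siRNA (95% interval -0.11 to 0.68, edgeR adjusted p = 0.587), 0.14 with knockdown alone (-0.26 to 0.54, edgeR adjusted p = 0.601) and 0.42 with both against scrambled siRNA (0.02 to 0.82, edgeR adjusted p = 0.0887). Its lowest library held 130 counts, which gives a counting error of 8.77%, the widest among the 8 genes. With ATP against TDP-43 siRNA its value was 0.18 without TDP-43 siRNA and ATP replicate 2, 0.11 without TDP-43 siRNA replicate 2 and 0.50 without TDP-43 siRNA replicate 3, and it passed in none of these fits.

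**Figure D3:**
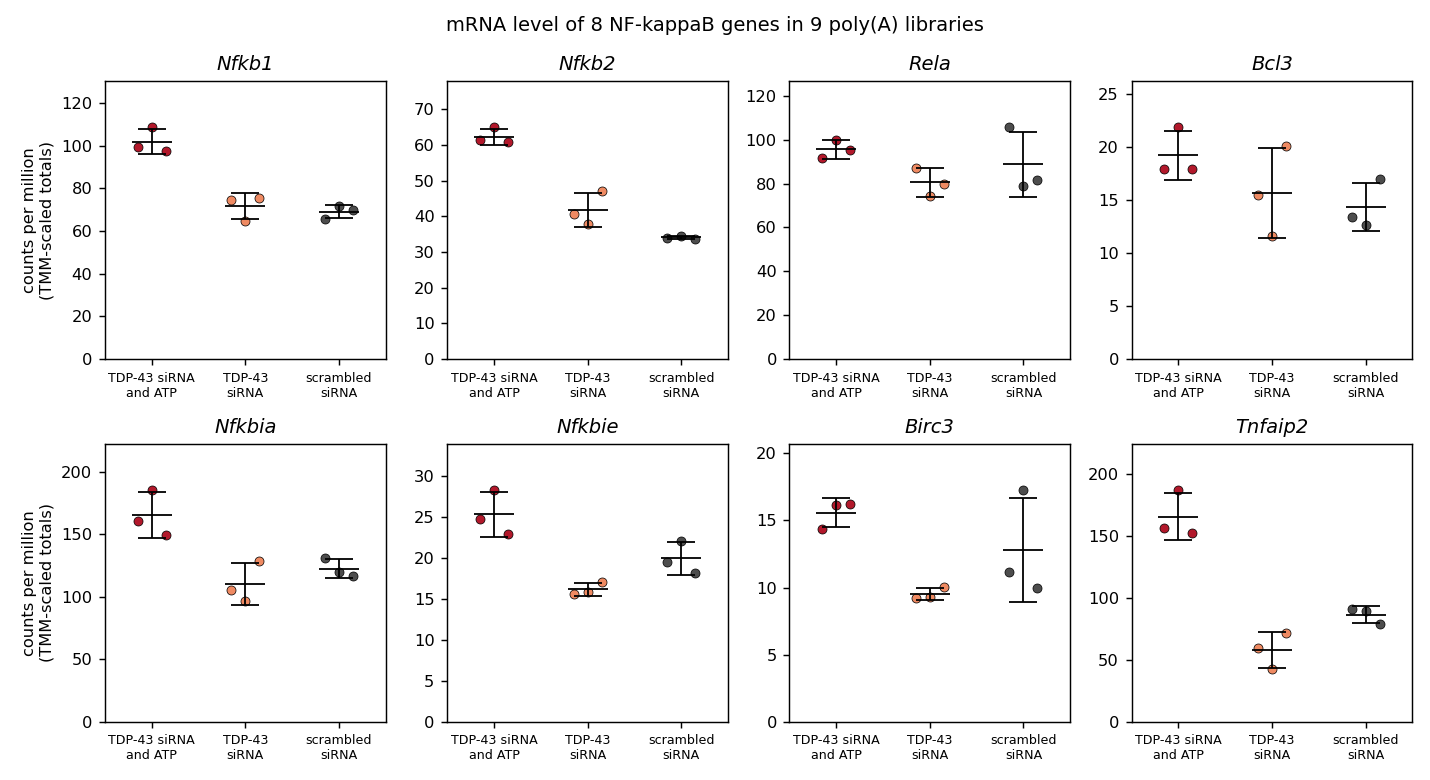
Level of each of the 8 genes in CPM (y axis, from 0) in the 3 groups (x axis); points are libraries, and bars give the mean and SD of 3. The ATP points of Nfkb1, Nfkb2, Nfkbia, Nfkbie and Tnfaip2 lie above every point of both other groups, while those of Rela and Birc3 overlap with scrambled siRNA and those of Bcl3 with TDP-43 siRNA. The share of all genes that separate in this way is not given here, so the separation is only a description.

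Among the inhibitors, Nfkbia encodes IkappaBalpha, which holds p65-p50 dimers in the cytoplasm and is made anew after each round of activation. It had 160.5, 185 and 149.6 CPM with TDP-43 siRNA and ATP, 105.5, 96.4 and 129 CPM with TDP-43 siRNA, and 131, 119.6 and 117 CPM with scrambled siRNA. The ATP libraries lay above all others, and the other groups overlapped. The log2 fold change with ATP was 0.58 against TDP-43 siRNA (SE 0.12, edgeR adjusted p = 0.0280) and 0.43 against scrambled siRNA (SE 0.12, edgeR adjusted p = 0.0108). Knockdown alone gave -0.15 (95% interval -0.41 to 0.10, edgeR adjusted p = 0.355).

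Nfkbie encodes IkappaBepsilon, an inhibitor known for its delayed return after activation. It had 24.9, 28.3 and 22.9 CPM with TDP-43 siRNA and ATP, 15.6, 15.9 and 17.1 CPM with TDP-43 siRNA, and 19.6, 22.1 and 18.2 CPM with scrambled siRNA. The 3 groups did not overlap, with TDP-43 siRNA lowest and ATP highest. With ATP it rose by 0.65 against TDP-43 siRNA (SE 0.13, edgeR adjusted p = 0.0267) and by 0.35 against scrambled siRNA (SE 0.13, edgeR adjusted p = 0.0491). The second call rests near the threshold: it held in 1 of 6 fits that left out a library and in 4 of the 8 other settings. The value after knockdown alone, -0.30 (95% interval -0.59 to -0.01), did not pass (edgeR adjusted p = 0.1002).

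Birc3 encodes cIAP2, a ubiquitin ligase of the receptor complexes that switch the pathway on. It had 14.4, 16.2 and 16.2 CPM with TDP-43 siRNA and ATP, 9.20, 9.27 and 10.04 CPM with TDP-43 siRNA, and 11.1, 17.3 and 9.998 CPM with scrambled siRNA. Scrambled replicate 2 was the highest library of all 9, and the scrambled group overlapped both others. With ATP the log2 fold change was 0.71 against TDP-43 siRNA (95% interval 0.32 to 1.10) but the edgeR adjusted p was 0.0895, and it passed with DESeq2 (adjusted p = 0.0219), with total counts alone (0.0454) and with only the 6 compared libraries (0.00677). Against scrambled siRNA, the values were 0.30 with ATP (edgeR adjusted p = 0.214) and -0.41 without it (edgeR adjusted p = 0.108). Both values turn on single scrambled libraries. Without scrambled replicate 2 they were 0.55 with ATP (edgeR adjusted p = 0.0123) and -0.16 without it (edgeR adjusted p = 0.461). Without scrambled replicate 3 they were 0.17 with ATP (edgeR adjusted p = 0.522) and -0.55 without it (edgeR adjusted p = 0.0422). Birc3 has a close paralog, Birc2, and how the counting shared reads between them is not given in the sources used here.

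Tnfaip2 is a target gene induced by tumour necrosis factor, whose product shapes membrane protrusions. It moved most of the 8. It had 157, 187 and 152 CPM with TDP-43 siRNA and ATP, 59.5, 42.7 and 71.3 CPM with TDP-43 siRNA, and 90.9, 89.5 and 78.5 CPM with scrambled siRNA. The 3 groups did not overlap, with TDP-43 siRNA lowest, scrambled siRNA between and ATP highest. With ATP it rose 2.85-fold against TDP-43 siRNA (log2 1.51, SE 0.15, edgeR adjusted p = 0.000440) and 1.91-fold against scrambled siRNA (log2 0.94, SE 0.15, edgeR adjusted p = 0.000186). Knockdown without ATP gave a fall by 0.57 on the log2 scale (SE 0.15, edgeR adjusted p = 0.00837). These calls held in every fit that left out a library and under every other setting tried, with log2 values from 1.34 to 1.69 for ATP against TDP-43 siRNA.

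Across the 9 libraries the genes kept to a shared profile to different degrees. The Pearson correlation of a gene's log2 CPM with the mean z-score of the other 7 was 0.97 for Nfkbia and for Tnfaip2, 0.92 for Nfkb1, 0.89 for Nfkbie and 0.81 for Nfkb2. It was 0.70 for Birc3, 0.65 for Bcl3 and 0.58 for Rela. The 5 other genes of at least 5 CPM whose log2 CPM came closest to the mean profile of the 8, among 9653 ranked over 9 libraries, were Baalc (r = 0.98), the lipopolysaccharide co-receptor gene Cd14 (0.98), Zcchc12 (0.97), Stac2 (0.96) and the pentraxin gene Ptx3 (0.95). Cd14 averaged 34.9 ± 5.16 CPM with TDP-43 siRNA and ATP, 20.3 ± 4.11 CPM with TDP-43 siRNA and 23.0 ± 1.09 CPM with scrambled siRNA (SD, n = 3 each). These likenesses are descriptions. The points share 3 groups and their libraries' depth.

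The rest of the pathway was looked up in 6 lists of 80 further genes, of which 70 were tested. With ATP in knocked-down cells, none of the tested kinases, adaptors, ligands and receptors was called by edgeR or DESeq2. Since only 0.926% of all genes rose and 0.141% fell by edgeR, counts of 0 in lists of this size are near the background and do not set these genes apart. Of 7 kinases 0 were called by edgeR or DESeq2, and 0 at an unadjusted p under 0.05. Ikbkb, which encodes the kinase that marks IkappaBs for degradation, averaged 45.6 ± 1.02 CPM with TDP-43 siRNA and ATP and 42.7 ± 5.12 CPM with TDP-43 siRNA (SD, n = 3 each). Of 17 adaptors and ubiquitin ligases 0 were called by either tool, and 0 at an unadjusted p under 0.05. Of 11 ligands and receptors 0 were called by either tool and 2 had an unadjusted p under 0.05, the cytokine gene Il1a (log2 1.04, edgeR adjusted p = 0.201) and the receptor gene Tnfrsf1b (0.36, edgeR adjusted p = 0.366). The tumour necrosis factor receptor gene Tnfrsf1a averaged 189 ± 4.07 CPM with ATP and 174 ± 20.9 CPM with TDP-43 siRNA alone (SD, n = 3 each). The tumour necrosis factor gene Tnf itself had 0 counts in every library.

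Other negative regulators and IkappaB genes were read against the same background shares of 0.926% and 0.141%. Of 9 other negative regulators 0 were called by edgeR or DESeq2 and 1 had an unadjusted p under 0.05, the RNase gene Zc3h12a (log2 0.42, edgeR adjusted p = 0.338). Tnip1, whose product works with the enzyme encoded by Tnfaip3, averaged 152 ± 7.44 CPM with TDP-43 siRNA and ATP and 146 ± 16.6 CPM with TDP-43 siRNA (SD, n = 3 each). The IkappaB family genes Nfkbib and Nfkbiz, the 2 tested of a list of 4, gave log2 values of 0.06 and 0.25 (edgeR adjusted p = 0.92 and 0.695), with 0 called by either tool and 0 at an unadjusted p under 0.05.

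Some known target genes outside the list were also called higher with ATP. They were chosen with earlier results of these data known, so they give no independent support. Of 24 tested, 7 rose and 0 fell by edgeR (29.2%, where all genes gave 0.926% and 0.141%). At an unadjusted p under 0.05, 14 were higher and 0 lower, with no share of all genes given at that threshold. DESeq2 gave 10 rises and 0 falls, where over all genes it called 267 higher and 164 lower. The list's median log2 fold change was 0.67. Over all genes, fits that left out a library called 21 to 48 higher in this comparison, against 112 with every library. The complement factor gene Cfb averaged 11.6 ± 7.35 CPM with TDP-43 siRNA and ATP and 4.01 ± 0.739 CPM with TDP-43 siRNA (SD, n = 3 each; log2 1.54, edgeR adjusted p = 0.0352). Ptx3 gave 0.97 (edgeR adjusted p = 0.0233), and the chemokine genes Cxcl10 and Cx3cl1 0.86 (0.0186) and 0.83 (0.00343). Ccl2, a chemokine gene that recruits monocytes, averaged 290 ± 35.3 CPM with TDP-43 siRNA and ATP and 177 ± 40.4 CPM with TDP-43 siRNA (SD, n = 3 each) and did not pass (edgeR adjusted p = 0.0941). Csf1 did not pass either (log2 0.36, edgeR adjusted p = 0.148).

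**Figure D4:**
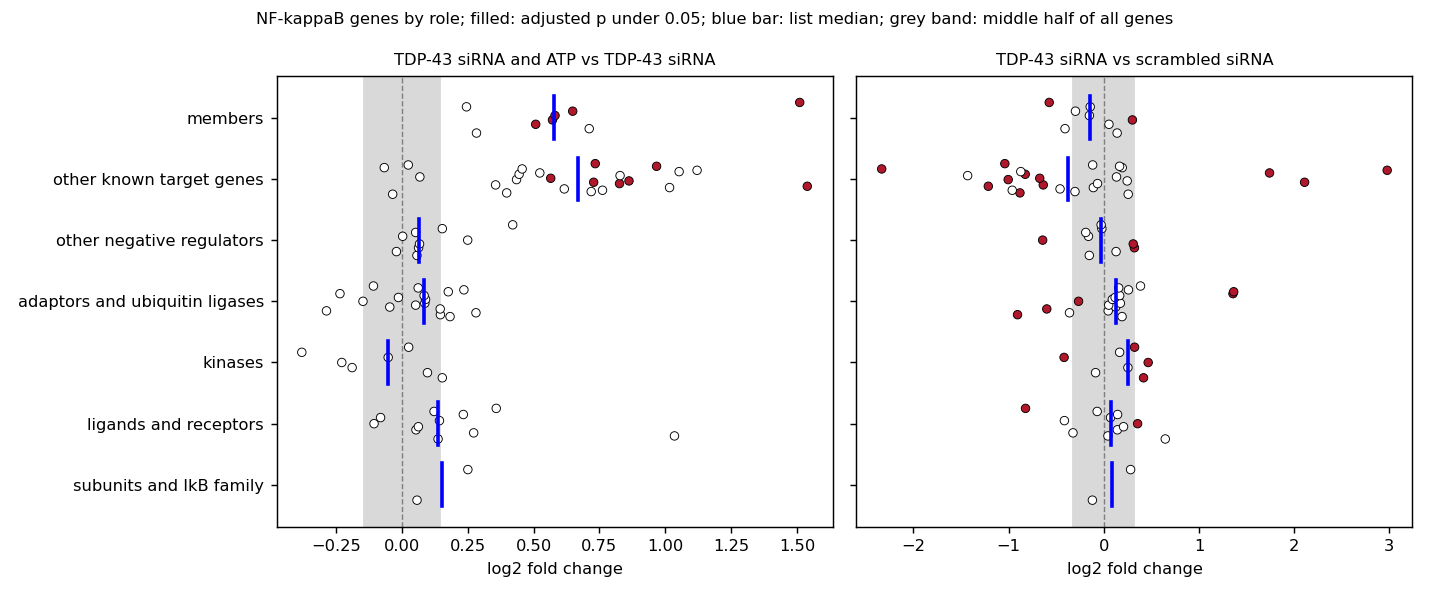
Log2 fold changes of NF-kappaB genes by role (rows) for ATP in knocked-down cells (left) and for knockdown (right); each point is a gene, filled where the edgeR adjusted p was under 0.05, the blue bar is the list median and the grey band spans the lower to the upper quartile of all genes tested. With ATP the filled points are 5 of the 8 genes described and 7 other target genes, lists with medians of 0.58 and 0.67, while the kinases centre on -0.05.

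Knockdown alone changed genes upstream and target genes in both directions. Of 7 kinases 3 rose and 1 fell: Ikbkg (log2 0.47), Chuk (0.42) and Tbk1 (0.32) were higher, and Map3k14, the kinase of the non-canonical branch, averaged 31.1 ± 3.56 CPM with TDP-43 siRNA and 41.7 ± 5.91 CPM with scrambled siRNA (SD, n = 3 each; log2 -0.42, edgeR adjusted p = 0.0211). Of 17 adaptors and ligases 2 rose and 3 fell, with Traf1 at 1.36, Tradd at 1.36, Irak1 at -0.91 and Myd88 at -0.60. Of 9 other negative regulators 2 rose (N4bp1 at 0.32, Otulin at 0.31) and 1 fell (Socs3 at -0.64). Of 11 ligands and receptors 1 rose (Ltbr at 0.35) and 1 fell (Tnfrsf1b at -0.82). These shares, like those of the 8 genes, stand beside 16.2% of all genes higher and 18.2% lower. With both treatments against scrambled siRNA, 2 of the 7 kinases rose and 1 fell, and 4 of the 17 adaptors and ligases rose and 3 fell, beside 17.4% of all genes higher and 20.0% lower.

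Of the 24 other target genes, 3 rose (12.5%) and 8 fell (33.3%) with knockdown alone, with a median of -0.38. The urokinase gene Plau averaged 53.9 ± 6.30 CPM with TDP-43 siRNA and 271 ± 58.8 CPM with scrambled siRNA, and the chemokine gene Cxcl1 averaged 114 ± 15.7 CPM with TDP-43 siRNA and 26.6 ± 4.28 CPM with scrambled siRNA (SD, n = 3 each). The adhesion molecule genes Vcam1 and Icam1 and Cfb were called lower with knockdown alone (log2 -1.04, -0.67 and -1.21) and higher with ATP against TDP-43 siRNA (0.73, 0.57 and 1.54), as Tnfaip2 was; Vcam1 and Icam1 were picked out after their values were seen. Both comparisons use the same TDP-43 siRNA libraries, so opposite signs in them are not independent. Against scrambled siRNA, the cells given both treatments showed log2 values of -0.31 for Vcam1, -0.11 for Icam1 and 0.32 for Cfb, none of which passed (edgeR adjusted p = 0.130, 0.516 and 0.457), while Tnfaip2 passed at 0.94. Over all 24 other target genes in that comparison, 7 rose (29.2%) and 3 fell (12.5%), beside 17.4% of all genes higher and 20.0% lower. Their log2 values ran from -1.88 to 4.10.

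Markers of other cells were read beside these results. With ATP against TDP-43 siRNA, 0 of 15 microglial markers were called by edgeR, 3 had an unadjusted p under 0.05, all higher, and DESeq2 called 2 higher and 0 lower. Over all genes edgeR called 0.926% higher and 0.141% lower, and DESeq2 called 267 and 164 genes. No share of all genes is given at the unadjusted threshold. The part of the microglial markers in the results of the 8 genes and of the other targets was not tested. The microglial integrin gene Itgam averaged 19.9 ± 1.97 CPM with TDP-43 siRNA and ATP, 11.8 ± 3.44 CPM with TDP-43 siRNA and 13.0 ± 0.750 CPM with scrambled siRNA, while the receptor gene Csf1r averaged 44.7 ± 8.57 CPM with TDP-43 siRNA and ATP, 42.4 ± 0.553 CPM with TDP-43 siRNA and 46.8 ± 3.90 CPM with scrambled siRNA (SD, n = 3 each). The marker Aif1 averaged 46.2 ± 6.46 CPM with TDP-43 siRNA and ATP, and 56.5 ± 8.47 CPM with TDP-43 siRNA. With scrambled siRNA it averaged 85.5 ± 23.7 CPM (SD, n = 3 each). Of the 15 markers, 10 had a log2 fold change above 0 with ATP against TDP-43 siRNA. Against scrambled siRNA, edgeR called 0 higher and 2 lower with TDP-43 siRNA, beside 16.2% and 18.2% of all genes. With both treatments it called 2 higher and 2 lower, beside 17.4% and 20.0%. No microglial marker was at 0. Fibroblast, mural and endothelial markers summed to 6315 to 6906 CPM with TDP-43 siRNA and ATP, 5724 to 8236 CPM with TDP-43 siRNA and 21539 to 22978 CPM with scrambled siRNA. With knockdown 7 of those 10 fell and 0 rose, beside 18.2% of all genes lower and 16.2% higher. With ATP against TDP-43 siRNA 0 were called by edgeR or DESeq2, and 0 had an unadjusted p under 0.05. By edgeR a count of 0 among 10 is near the background of 0.926% higher and 0.141% lower. The part of these 10 markers in the comparisons with scrambled siRNA was not tested. Of 8 oligodendrocyte lineage markers 1 rose with ATP by edgeR (Mbp, log2 0.76), or 12.5%, where 0.926% of all genes rose. DESeq2 called 3 of them higher, where over all genes it called 267 higher. At an unadjusted p under 0.05, 4 were higher and the list's median log2 was 0.38. Of 6 neuron markers tested, 3 rose and 1 fell with knockdown, beside 16.2% of all genes higher and 18.2% lower. With ATP against TDP-43 siRNA, 0 neuron markers were called by edgeR or DESeq2. The part of both lists in the results of the 8 genes was not tested. Of 10 astrocyte markers 0 were called by edgeR in that comparison, 1 had an unadjusted p under 0.05 and 1 was called higher by DESeq2.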

How the data were processed

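Poly(A) RNA of rat astrocytes was sequenced from TruSeq libraries, per the labels' protocols. The authors deposited raw counts per gene symbol and per repeat element; build rn6 and the tools Bowtie2, TopHat2, Trimmomatic and DESeq2 stand in the submitters' processing notes without roles, while the counter and its use of strand are not named there. A further 26 rows whose symbols had turned into dates (0.286 to 0.331% of counts) were left out. Repeat counts served only as totals, and the immunoprecipitation libraries were not used here.

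Counts of all 9 poly(A) libraries (11485173 to 40286765 each) were fitted with edgeR 4.0.16 in R 4.3.3 (filterByExpr, TMM, 1 mean per group, glmQLFTest, Benjamini-Hochberg over 12096 genes, threshold 0.05). Each SE was the size of the log2 fold change divided by the root of F. Members and lists were chosen with earlier results of these data known, and so give no independent support. All 8 members with a row are described; of each other list, up to 4 called genes of largest change and 2 abundant genes that did not pass could be named. Likeness used log2 CPM with a prior count of 2. Other settings tried were DESeq2 1.42.0, scaling by total counts, RLE or upper quartile, a looser and a CPM-based filter, a fit of the 6 compared libraries, a block for replicate number, and leaving out each library. Exact permutation tests of 3 against 3 libraries cannot go below p = 0.1; Tardbp gave 0.1 against scrambled siRNA with and without ATP. Within groups, every pair of libraries differed beyond sampling noise (lowest chi-square over its degrees of freedom 11.02). The scripts were tested on simulated data. All 10 symbols matched RefSeq of GRCr8, used for names and promoter sequences; gene coordinates of the files' build were not used.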

Additional observations from a re-analysis of the deposited data

How the results depend on the processing

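The number of listed genes called changed with the setting. For TDP-43 siRNA and ATP against TDP-43 siRNA, 5 were higher, 2 with a replicate block (Nfkb2 and Tnfaip2) and between 1 and 3 when a library was left out. For TDP-43 siRNA against scrambled siRNA, 1 was higher, but 0 without a low-count filter, with only the 6 compared libraries and with a replicate block, and between 0 and 1 with a library left out; the 1 lower was between 1 and 2 with a library left out. For both treatments against scrambled siRNA, 5 were higher, 8 with total counts alone and between 3 and 6 with a library left out. With only the 6 compared libraries, 6 were higher for TDP-43 siRNA and ATP against TDP-43 siRNA. Why the counts changed with the setting was not tested. The labels do not say whether same-numbered libraries were paired. Correlations of their deviations from the group means ran from -0.15 to 0.12. With 3 libraries per group, these values cannot settle whether the numbers mark pairs.

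Of 336 refitted log2 fold changes of the 8 genes, 281 kept their direction and their side of the threshold, 43 lost a call and 8 gained one. Another 4 changed sign, none of them called, all for TDP-43 siRNA against scrambled siRNA: Rela at 0.024 with total counts and 0.0076 without scrambled replicate 1, Nfkbia at 0.018 with total counts, and Bcl3 at -0.077 without TDP-43 siRNA replicate 3. With a library left out, Rela ran from -0.22 to 0.0076 and Bcl3 from -0.077 to 0.31. Tardbp kept its fall against scrambled siRNA in every fit (log2 -2.92 to -2.66 with a library left out and no ATP), and its difference between the groups with and without ATP ran from -0.034 to 0.22. Over all genes, ATP against TDP-43 siRNA gave 112 higher and 17 lower, but 267 and 164 with DESeq2, 431 and 386 with only the 6 compared libraries, 141 and 36 without a low-count filter, 62 and 6 with a replicate block, and 21 to 48 higher and 0 to 5 lower with a library left out. TDP-43 siRNA against scrambled siRNA gave 1956 higher, and 1300 with only the 6 compared libraries. Bcl3 and Birc3 had the fewest counts, 130 and 145 in their lowest libraries, or counting errors of 8.77% and 8.30%. The spread between libraries of a group reached 27.0% for Bcl3 (TDP-43 siRNA) and 30.5% for Birc3 (scrambled siRNA).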
